A study of Homo sapiens with 3 samples.

Results

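ETS and Kruppel-like (KLF) transcription factors were read in wild-type NCI-H1975 cells, an established human lung adenocarcinoma line that had not been made resistant to anlotinib, a drug that blocks receptor tyrosine kinases, those of vascular growth factors among them. The 44 members, 27 of the ETS family and 17 of the KLF family, were chosen by gene family from their symbols, out of 60880 gene rows, and the rule uses no measured value. The study set anlotinib-resistant against wild-type cells by RNA-seq and ATAC-seq and knocked down TFAP2A in resistant cells, but values were analysed here for 1 library only, the wild-type RNA-seq replicate labelled 2. Resistant cells, knockdown cells and both ATAC-seq samples of wild-type cells were not analysed here, so no contrast between cell states was made and no p-value was computed.

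ETS factors share a winged helix-turn-helix domain that reads a GGAA core, and the residues around that core, partner proteins and phosphorylation decide where each of them acts. Many are end points of the RAS-ERK cascade, the pathway that a mutant EGFR keeps active in lung adenocarcinoma. KLF factors carry 3 zinc fingers that bind GC-rich and CACCC-type sequence, which they share with the SP factors, and they act as activators or repressors according to the cofactor that their amino-terminal part recruits.

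The library held 25012733 counts (reads assigned to genes), so 1 count stands for 0.04 CPM (counts per 1000000 counts of the library) and a gene listed at 0 may lie anywhere below 0.12 CPM, the level of 3 counts. A gene with at least 10 counts is called detected. Intervals are exact 95% intervals that cover counting error only, and the spread between cultures is unknown. For a gene at 0 such an interval ends at 0.1475 CPM, above the separate limit of 3 counts. CPM is not corrected for transcript length, and no transcript lengths were used, so genes are ordered below by their reads, which need not be the order of their transcript numbers. All 9 lung epithelial markers were detected, among them NKX2-1 with 2926 counts and NAPSA with 595. All 6 erythroid markers were at 0. Of 9 leukocyte markers 1 was detected, and the other 8, PTPRC, ITGAM, LYZ, CD3E, TYROBP, CD3D, MS4A1 and AIF1, had at most 2 counts each. Of 8 endothelial markers with a row CDH5, KDR and VWF were detected, with 340, 35 and 10 counts, TEK had 1, and TIE1, CLDN5, EMCN and CD34 were at 0. Of 7 fibroblast markers COL1A1, COL1A2 and PDGFRB were detected, with 7847, 4104 and 150 counts, COL3A1 had 2, and DCN, LUM and PDGFRA were at 0.

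Most members of both families were present in these cells. The 10 members under 10 counts were ERG, FLI1, FEV, ELF5, SPI1, SPIB, SPIC, KLF1, KLF14 and KLF15, and most of these are best known from blood, endothelium or another specialised lineage. Detected members known from such lineages included ELF4, KLF13 and KLF2, with 2091, 1873 and 305 counts. Detected and undetected members were not compared by lineage. Of the 44 members 34 were detected (77.3%), against 69.7% of 19033 protein-coding genes, a background close to the share of members. The ETS family had 20 of 27 detected and the KLF family 14 of 17. The median over all 44 members was 535 counts, or 21.4 CPM, against 247 counts, or 9.88 CPM, over all protein-coding genes. Among the 34 detected members 21 lay above the median of detected protein-coding genes, which was 662 counts. ETS genes together took 19740 counts, or 0.0789% of the library, and KLF genes 13401 counts, or 0.0536%. Within each family a few genes took most reads. ELF3, ELF4, ETS2, ELK3 and ETS1 held 56.8% of ETS reads, and KLF6, KLF13 and KLF7 held 51.4% of KLF reads.

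**Figure D1:**
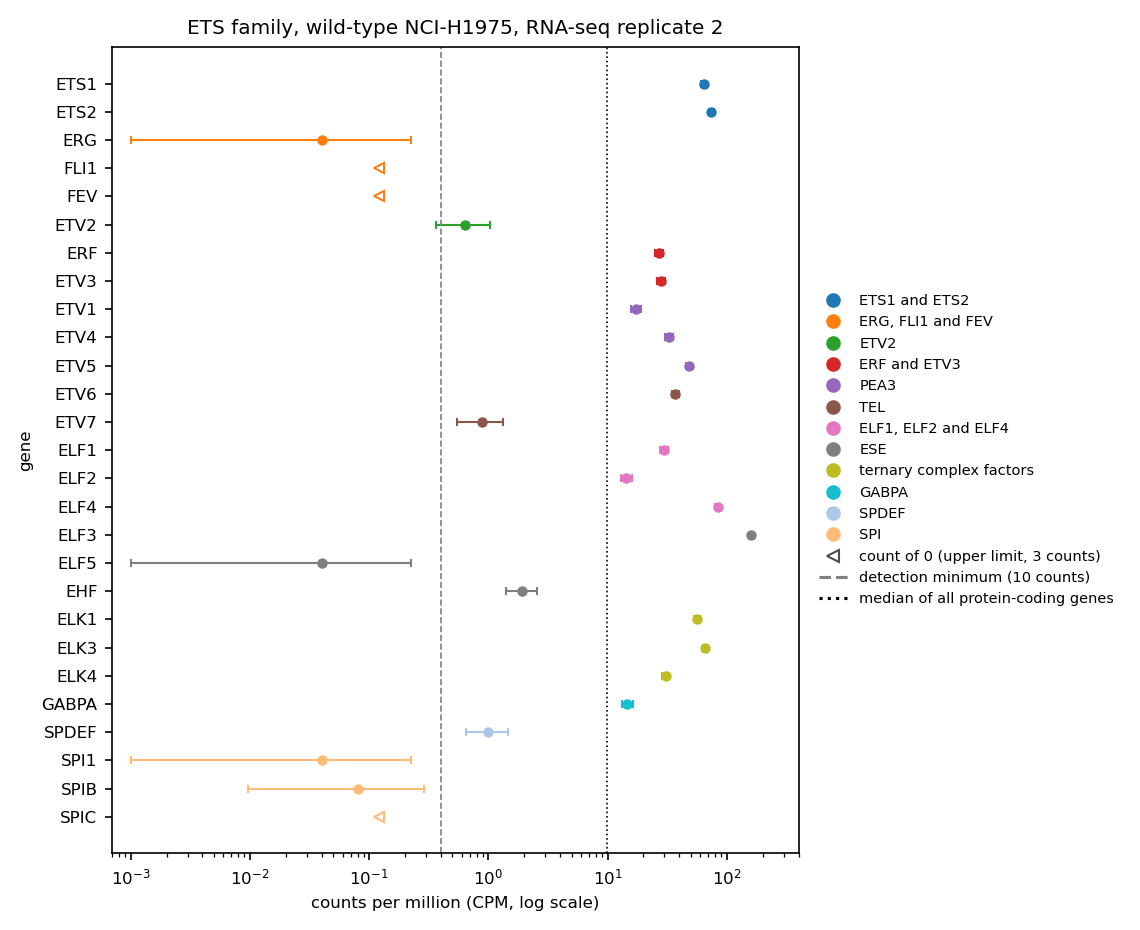
Level of each ETS gene in the wild-type RNA-seq library, in CPM on a log scale, with the exact 95% Poisson interval of its count (bars hidden by the point where narrow), coloured by subfamily. ELF3 lies furthest right at 160.5 CPM, and the ERG and SPI subfamilies lie left of the dashed line of 10 counts.

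The epithelial ESE subfamily was read almost wholly through ELF3. ELF3 (ENSG00000163435.15_3), an epithelium-specific activator of epithelial differentiation and inflammatory genes, had 4014 counts, or 160.5 CPM (155.6 to 165.5). That was the highest count of all 44 members, 20.3% of ETS reads (19.8 to 20.9), and above 91.3% of detected protein-coding genes. Its relative EHF, which is expressed in many airway and glandular epithelia, had 48 counts, or 1.92 CPM (1.42 to 2.54). In a bulk library, a low level in every cell and a higher level in few cells cannot be told apart. ELF5, a regulator of mammary alveolar cells, had 1 count. EHF and ELF5 are direct neighbours among the protein-coding genes of chromosome 11. SPDEF, a factor of goblet and other secretory cells, had 25 counts, or 1.0 CPM (0.647 to 1.48). The antisense gene ELF3-AS1 had 351 counts. The strand setting of the counting was not stated, so reads of ELF3 and its antisense partner may not be fully separated.

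The promoter of ELF3 is shown because this gene led the members. RefSeq (GRCh38.p14) lists 1 start for ELF3, on the plus strand of chromosome 1, and the 250 bases before it are chr1:202010337-202010586. Capitals mark a TATAAA match that begins 34 bases before the start, and neither CCGGAAG nor the KLF-type motifs GGGTGTG and CCACCC matched on either strand.
ELF3: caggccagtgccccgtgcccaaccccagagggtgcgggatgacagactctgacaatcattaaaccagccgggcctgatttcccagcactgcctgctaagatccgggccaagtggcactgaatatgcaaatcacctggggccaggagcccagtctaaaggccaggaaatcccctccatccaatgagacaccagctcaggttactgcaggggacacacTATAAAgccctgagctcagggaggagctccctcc
TATAAA was found in the 300-base promoter window of 9.7% of 15214 protein-coding genes and of 5 of the 36 members with a promoter in the table, ELF1, ELF2, ELF3, KLF5 and SPIB.

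ETS1 and ETS2, the founding pair, were both well covered, and their chromosomal neighbours were not. ETS2 (ENSG00000157557.11_3), which ERK activates by phosphorylation next to its pointed domain, had 1857 counts, or 74.2 CPM (70.9 to 77.7). ETS1, known from lymphocytes, vessel growth and tumour invasion, had 1609 counts, or 64.3 CPM (61.2 to 67.6). ERG and FLI1, which maintain endothelial and blood-forming cells, had 1 and 0 counts, and FEV, a factor of serotonergic neurons, had 0. FLI1 is the protein-coding gene next to ETS1 on chromosome 11, and ERG is the one next to ETS2 on chromosome 21. Neighbouring relatives thus stood at 1609 against 0 counts and at 1857 against 1. ETV2, the inducer of endothelial and blood progenitors in the embryo, had 16 counts, or 0.64 CPM (0.366 to 1.04).

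The ERK-responsive PEA3 subfamily was detected in full. ETV5 (ENSG00000244405.7_3) had 1201 counts, or 48.0 CPM (45.3 to 50.8), ETV4 had 820 counts, or 32.8 CPM (30.6 to 35.1), and ETV1 had 436 counts, or 17.4 CPM (15.8 to 19.2). These activators of branching and invasion are induced by fibroblast growth factor signalling. Among the genes that restrain them, the transcriptional repressor CIC had 1751 counts and its partners ATXN1L and ATXN1 had 1863 and 1283. The ubiquitin ligase COP1, which marks PEA3 proteins for degradation, had 697 counts, whereas its adaptor DET1 had 11.

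The ternary complex factors, which bind DNA together with serum response factor (SRF) and are switched on by ERK, were likewise all detected. ELK3 (ENSG00000111145.7_4), a repressor until phosphorylated, had 1651 counts, or 66.0 CPM (62.9 to 69.3). ELK1 had 1406 counts, or 56.2 CPM (53.3 to 59.2), and ELK4 had 767 counts, or 30.7 CPM (28.5 to 32.9). SRF had 2289 counts, and MRTFA and MRTFB, the actin-regulated coactivators that compete with ELK proteins for SRF, had 1971 and 1670. MED23, the Mediator subunit contacted by phosphorylated ELK1, had 637 counts.

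GABPA, which forms a tetramer with GABPB proteins and serves genes of mitochondrial function, had 366 counts, or 14.6 CPM (13.2 to 16.2). Its partners GABPB2 and GABPB1 had 562 and 346 counts. GABPA and ELK4 were the only members whose promoter window, at the most upstream listed start, held the ETS-type motif CCGGAAG on either strand. Both have 1 listed start. The 250 bases before it are chr21:25734722-25734971 on the plus strand for GABPA and chr1:205632012-205632261 on the minus strand for ELK4, read 5′ to 3′ with the motif in capitals. The match begins 66 bases before the start in GABPA, where it is read on the opposite strand, and 22 bases before the start in ELK4.
GABPA: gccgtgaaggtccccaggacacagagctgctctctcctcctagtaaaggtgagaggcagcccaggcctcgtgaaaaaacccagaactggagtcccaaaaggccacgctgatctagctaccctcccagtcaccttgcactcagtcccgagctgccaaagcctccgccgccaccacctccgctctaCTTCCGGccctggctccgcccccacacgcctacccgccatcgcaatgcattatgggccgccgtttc
ELK4: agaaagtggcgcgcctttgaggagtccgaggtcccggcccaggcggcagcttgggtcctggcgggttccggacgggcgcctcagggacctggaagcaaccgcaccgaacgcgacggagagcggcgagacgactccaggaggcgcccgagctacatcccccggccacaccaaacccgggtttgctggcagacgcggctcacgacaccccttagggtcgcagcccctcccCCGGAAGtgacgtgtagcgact
The share of members with this motif, 2 of 36 (5.56%), stood beside 14.3% of all 15214 protein-coding promoters. With any listed start of a gene counted, the number was 3 of 36 (8.33%), against 16.7% of all 15214 protein-coding genes. All 3 were detected genes, close to the 92.1% detected among all protein-coding genes with the motif at any listed start.

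The remaining ELF factors and the ETS repressors were detected, and the SPI subfamily was not. ELF4 (ENSG00000102034.16_2), known from natural killer cells and antiviral responses, had 2091 counts, or 83.6 CPM (80.1 to 87.3), the second count of the family. ELF1 had 741 counts and ELF2 had 359. The repressor ERF, which leaves the nucleus when ERK phosphorylates it, had 676 counts, or 27.0 CPM (25 to 29.1), and its relative ETV3 had 705 counts, or 28.2 CPM (26.1 to 30.4), so that their intervals overlapped. ETV6, a repressor best known from leukaemia fusions, had 925 counts, or 37.0 CPM (34.6 to 39.4), against 22 for ETV7, an interferon-induced relative. The lymphoid and myeloid factors SPI1, SPIB and SPIC had 1, 2 and 0 counts. IRF4 and IRF8, which bind DNA together with SPI1 and SPIB, had 0 and 3.

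**Figure D2:**
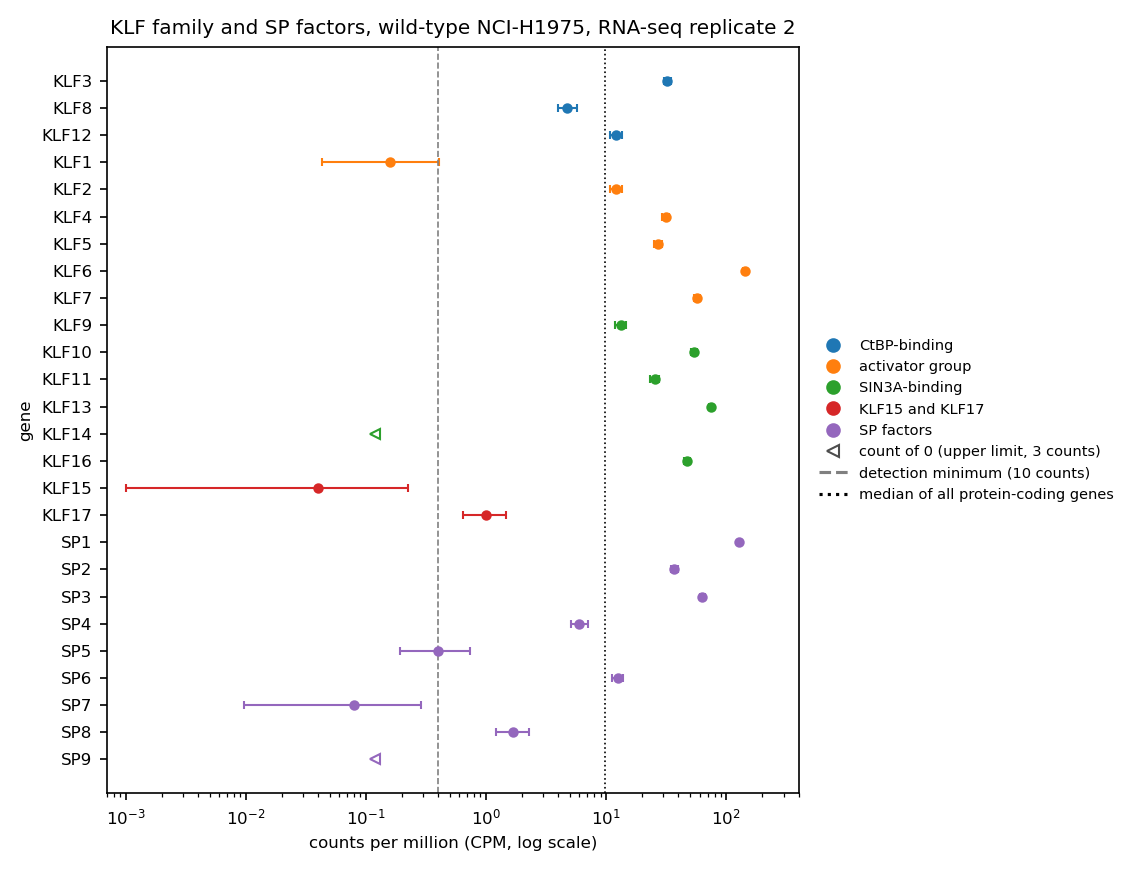
Level of each KLF gene and of the related SP factors in the wild-type RNA-seq library, in CPM on a log scale, with the exact 95% Poisson interval of its count, coloured by group. KLF6 lies furthest right at 143.8 CPM, and KLF1, KLF14 and KLF15 lie left of the dashed line of 10 counts.

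Among the KLF genes that mainly activate transcription, KLF6 took the most reads. KLF6 (ENSG00000067082.14_2), an injury-induced factor often described as a tumour suppressor, had 3597 counts, or 143.8 CPM (139.1 to 148.6), which was 26.8% of KLF reads (26.1 to 27.6) and above 90.0% of detected protein-coding genes. KLF7, known from neurons, had 1424 counts, or 56.9 CPM (54.0 to 60.0). KLF4, a reprogramming and epithelial barrier factor, had 782 counts, or 31.3 CPM (29.1 to 33.5), and KLF5, a driver of epithelial proliferation, had 673 counts, or 26.9 CPM (24.9 to 29.0). KLF2, the flow-induced factor of quiescent endothelium, had 305 counts, or 12.2 CPM (10.9 to 13.6). The erythroid factor KLF1 had 4 counts, beside the 6 erythroid markers at 0.

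KLF5 and KLF12 are direct neighbours among the protein-coding genes of chromosome 13, and unlike the other 3 neighbouring pairs of members both were above 100 counts. KLF12, also called AP-2rep and known as a repressor of TFAP2A, the gene that the study knocked down, had 304 counts, or 12.2 CPM (10.8 to 13.6). The other repressors that bind CtBP, KLF3 and KLF8, had 807 counts, or 32.3 CPM (30.1 to 34.6), and 119 counts, or 4.76 CPM (3.94 to 5.69). Their corepressors CTBP1 and CTBP2 had 5227 and 3737 counts. KLF3-AS1, antisense to KLF3, had 58 counts.

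Repressors that recruit SIN3A were led by KLF13 (ENSG00000169926.10_3), known from T lymphocytes, with 1873 counts, or 74.9 CPM (71.5 to 78.4). KLF10, the TGF-beta-inducible early gene, had 1352 counts, or 54.1 CPM (51.2 to 57.0), and its relative KLF11 had 634 counts, or 25.4 CPM (23.4 to 27.4). KLF9, a target of glucocorticoid and thyroid hormone receptors, had 331 counts, or 13.2 CPM (11.9 to 14.7). SIN3A itself had 1370 counts. KLF16 had 1170 counts, or 46.8 CPM (44.1 to 49.5), while KLF14 was at 0.

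KLF14 is an intronless gene thought to have arisen as a retrotransposed copy of KLF16. Their upstream sequences are shown together because this pair had the longest shared run of all member promoters. How the shared stretch arose was not tested. The 250 bases before the only listed start are chr7:130734208-130734457 for KLF14 and chr19:1863580-1863829 for KLF16, both on the minus strand. Capitals mark the longest run that both share without a mismatch, 29 bases, which begins 57 bases before the start of KLF14 and 116 bases before that of KLF16.
KLF14: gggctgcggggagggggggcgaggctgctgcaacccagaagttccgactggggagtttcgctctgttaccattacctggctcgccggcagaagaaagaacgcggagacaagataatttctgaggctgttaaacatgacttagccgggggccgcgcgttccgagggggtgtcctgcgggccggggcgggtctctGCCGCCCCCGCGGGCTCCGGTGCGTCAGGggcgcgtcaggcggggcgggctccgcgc
KLF16: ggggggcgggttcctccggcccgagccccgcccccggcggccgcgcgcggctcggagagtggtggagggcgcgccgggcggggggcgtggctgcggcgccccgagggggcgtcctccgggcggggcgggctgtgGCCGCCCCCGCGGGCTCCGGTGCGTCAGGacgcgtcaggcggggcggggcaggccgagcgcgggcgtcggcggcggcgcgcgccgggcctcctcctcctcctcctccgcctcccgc
A local alignment covered 97 columns at 87.6% identity, bases 103 to 9 before the start of KLF14 and bases 162 to 69 before that of KLF16. Over all 630 pairs of the 36 member promoters the median longest shared run was 9 bases, and the next longest was 15. GC content of the 250 bases was 68.8% in KLF14 and 86.4% in KLF16. KLF14 at 0 counts and KLF16 at 1170 counts thus shared part of the sequence before their starts.

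KLF17, a factor of the early human embryo, had 25 counts, or 1.0 CPM (0.647 to 1.48), and KLF15, known from liver, muscle and kidney, had 1. The window of KLF17 held 5 matches to CCACCC, more than any other member promoter. All 5 lie within the 250 bases before its only listed start, chr1:44118571-44118820 on the plus strand, and are read on the opposite strand, so they appear as GGGTGG in capitals, with an overlap of neighbouring matches in 1 place.
KLF17: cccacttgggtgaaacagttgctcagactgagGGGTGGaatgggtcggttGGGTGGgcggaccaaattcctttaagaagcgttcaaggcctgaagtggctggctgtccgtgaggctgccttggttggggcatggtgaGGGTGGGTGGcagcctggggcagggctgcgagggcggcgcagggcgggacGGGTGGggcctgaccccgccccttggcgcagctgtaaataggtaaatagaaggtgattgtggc
CCACCC was found in 13 of 36 member promoters (36.1%), against 37.3% of all protein-coding promoters.

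The SP factors, which bind the same GC-rich boxes, were read as the nearest relatives of the KLF family. Of 9 genes 7 were detected (77.8%, against 69.7% of all protein-coding genes). SP1, SP3 and SP2 had 3216, 1584 and 922 counts, or 128.6, 63.3 and 36.9 CPM. SP6 had 312 counts, SP4 had 150, SP8 had 42 and SP5 had 10, which is exactly the detection minimum. SP7, the bone-forming factor osterix, had 2 and SP9 had 0. Median counts were 634 over the 17 KLF genes and 150 over the 9 SP genes.

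Partners, inputs and reported targets were read from lists of pathway genes. The ERK cascade had 12 of 12 genes detected, at a median of 62.8 CPM, led by MAP2K2 and RPS6KA3 with 9837 and 4052 counts. ETS partners and turnover genes had 16 of 18 detected, at a median of 54.7 CPM, led by the acetyltransferases EP300 and CREBBP with 4198 and 3874 counts and by RUNX1, a DNA-binding partner of ETS1, with 2301. KLF cofactors and turnover genes had 14 of 14 detected, at a median of 92.4 CPM, led by CTBP1, the deubiquitinase BAP1, which stabilises KLF5, and EP300 with 5227, 4253 and 4198 counts. The ERK5 and MEF2 genes that induce KLF2 and KLF4 had 7 of 7 detected, at a median of 31.4 CPM, with 3265 counts for MEF2D, 1381 for MAP3K3 and 904 for MAP3K2. All of these medians stood beside 9.88 CPM over all protein-coding genes, of which 69.7% were detected.

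**Figure D3:**
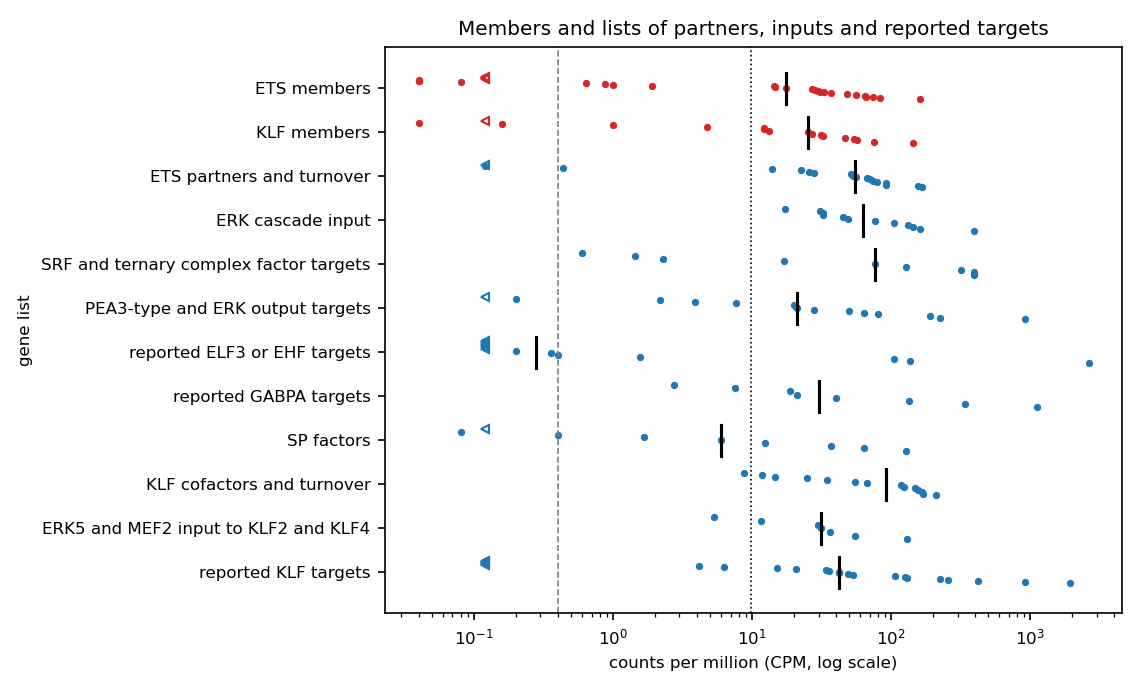
Level of every ETS and KLF member (red) and of every gene in the lists of partners, inputs and reported targets (blue), in CPM on a log scale. Black bars are list medians, open triangles are counts of 0 drawn at 3 counts, and the dashed and dotted lines are 10 counts and the median of all protein-coding genes. The list of reported ELF3 or EHF targets has the lowest median, 0.28 CPM, left of the dashed line.

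Reported targets of the ERK-linked ETS factors and of GABPA are given beside all protein-coding genes, of which 69.7% were detected, with a median of 9.88 CPM. SRF and ternary complex factors had 9 of 9 listed targets detected, with a median of 75.8 CPM, led by JUNB, IER2 and MCL1 with 9897, 9781 and 7883 counts. EGR1 had 3217 counts in that list and FOSB had 15. GABPA had 8 of 8 reported targets detected, with a median of 30.5 CPM, led by ATP5F1B, COX4I1 and COX5B with 28036, 8515 and 3363 counts. PEA3-type and ERK output genes had 13 of 15 detected, at a median of 21.1 CPM, led by the plasminogen activator PLAU with 22814 counts, CCND1 with 5615 and PHLDA1 with 4767. The 2 genes of that list under 10 counts were the matrix metalloproteinases MMP3 and MMP7, with 5 and 0.

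Of 12 reported ELF3 or EHF targets 5 were detected (41.7%, against 69.7% of all protein-coding genes), with a list median of 0.28 CPM. At a minimum of 1 count 7 of the 12 were detected, and this list also held 5 genes at 0, SPRR1A, SPRR2A, TGM3, NOS2 and ANGPT1. Over all protein-coding genes 4030 of 19033 were at 0. SPRR1B and SPRR3, small proline-rich proteins of the cornified envelope, had 9 and 5 counts. The highest members were KRT8 with 65584 counts, CLDN7 with 3404 and TGFBR2 with 2630. PTGS2 had 39 counts and LCN2 had 10, exactly the detection minimum. Reported KLF targets had 18 of 23 detected (78.3%, close to the 69.7% of all protein-coding genes), at a median of 42.0 CPM, led by KRT19, PLAU and CDH1 with 48349, 22814 and 10561 counts. That list does not separate genes that KLF factors activate from genes that they repress, so neither detection nor a count of 0 shows KLF activity. The 5 at 0 were SELE, VCAM1, ALPI, HBB and HBG1.

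Promoter sequence was then set beside detection over all genes, since ETS-type motifs are common near gene starts. The table of RefSeq promoters (GRCh38.p14) held 250 bases before and 50 after the start for 15214 protein-coding genes with counts, and for 36 members. The other 8 were ETS1, FLI1, ETV4, ETV5, ETV7, SPI1, KLF3 and KLF10. Of 2180 promoters with CCGGAAG on either strand, 92.4% (91.2 to 93.5) belonged to detected genes, against 67.5% (66.7 to 68.4) of 13034 promoters without it. The median gene had 753 counts with the motif and 205 without it. Promoters with the motif had a median GC content of 64.3%, against 62.3% without it. When promoters were split into 4 groups of rising GC content, the shares were 88.3% with the motif and 39.4% without it in the lowest group, and 95% with it and 84.4% without it in the highest. In the lowest group median GC content was 50.7% with the motif and 45.7% without it, so the split did not equalise it there. The letters CCGGAAG also contain CG. The median number of CG pairs per window was 26 in detected genes and 6 in genes under 10 counts, and a split by that number was not made. The intervals given treat genes as independent draws, and a match is a description of letters and not a binding site.

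**Figure D4:**
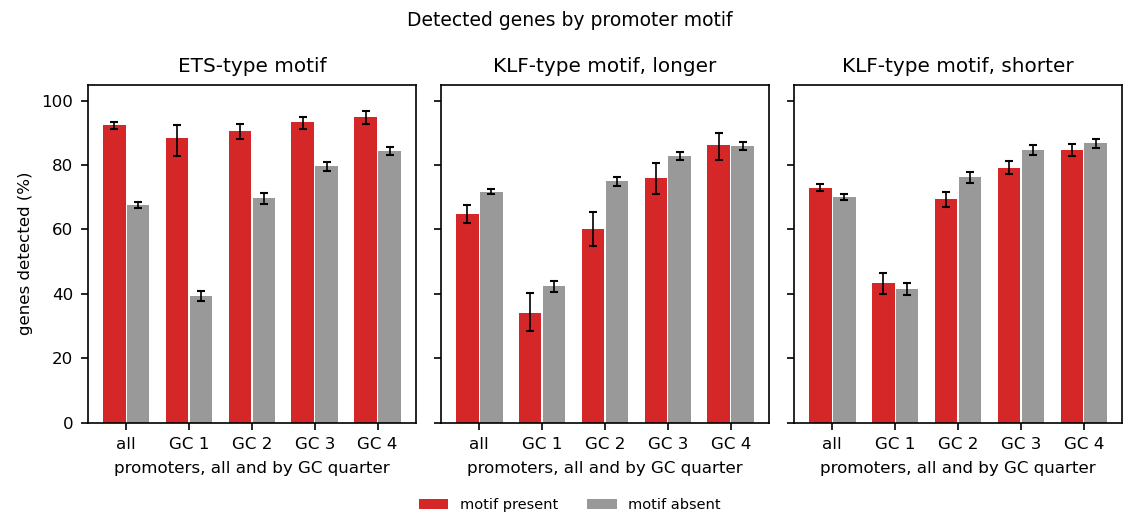
Share of genes with at least 10 counts among promoters with (red) and without (grey) an ETS-type motif (CCGGAAG), the longer KLF-type motif (GGGTGTG) and the shorter one (CCACCC), over all promoters and in 4 groups of rising GC content (GC 1 to GC 4). Bars start at 0, and error bars are exact 95% binomial intervals. The red bar stands above the grey bar in all 5 positions of the ETS-type motif, with 88.3% against 39.4% in the lowest GC group. In that group median GC content was 50.7% with the ETS-type motif and 45.7% without it.

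Over all promoters together, the KLF-type motifs gave smaller differences than the ETS-type motif. Among 1189 promoters with GGGTGTG 64.8% (62.1 to 67.6) belonged to detected genes, against 71.6% (70.9 to 72.4) of those without it. In GC groups 1 to 4 the shares were 34.1%, 60.2%, 75.9% and 86.2% with GGGTGTG, against 42.4%, 74.9%, 82.8% and 85.8% without it. The gap in group 2 was wider than those of the ETS-type motif in GC groups 3 and 4, where 93.3% and 95% of genes with CCGGAAG were detected, against 79.6% and 84.4% without it. Among 5678 promoters with CCACCC the share was 73.0% (71.8 to 74.1), against 70.0% (69.1 to 70.9) without it, but in GC groups 2, 3 and 4 it was lower with the motif, at 69.3%, 79.2% and 84.7%, against 76.2%, 84.7% and 86.7% without it. GGGTGTG was found in 2 of 36 member promoters (5.56%), ERG and KLF8, against 7.82% of all protein-coding promoters.

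The motif of the factor that the study knocked down was searched in the same windows, a choice made after counts were seen. The AP-2-type motif GCCNNNGGC, which reads the same on both strands, was found in 9 of 36 member promoters (25%), against 28.4% of all protein-coding promoters. By family it was in 6 of 15 KLF promoters, KLF2, KLF4, KLF14, KLF15, KLF16 and KLF17, and in 3 of 21 ETS promoters, ERG, FEV and SPIB. It was in 5 of the 8 member promoters whose genes were under 10 counts and in 4 of the 28 whose genes were detected. Over all protein-coding genes the order was the other way, with the motif in 19.3% of promoters of genes under 10 counts and in 32.1% of those of detected genes. With any listed start of a gene the member numbers were 5 of 8 and 8 of 28. The shares over all protein-coding genes were then 22.2% and 38.7%. Median GC content was 69.3% in the 8 member promoters and 63.3% in the 28. In all protein-coding genes it was 54% for those under 10 counts and 65% for detected ones. FLI1 and SPI1, also under 10 counts, were without a listed promoter. Whether GC content underlies the order in the members was not tested. Over all protein-coding genes, promoters with the AP-2-type motif had a median GC content of 69.3%, against 60% without it. The shares of detected genes with it were 46.8%, 73.1%, 82.1% and 86% in GC groups 1 to 4. Without it they were 41.5%, 73.7%, 82.4% and 85.7%. A CArG box, the site of SRF, was found in 1 member promoter, against 1.23% of all. That promoter was the most upstream of the 4 listed for KLF7.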

How the data were processed

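Wild-type NCI-H1975 RNA-seq replicate 2 was the only sample with values. Per the labels' protocols, RNA was extracted with Trizol and 1 ug went into a directional NEBNext library. The deposited file holds raw whole-number counts per Ensembl gene, not normalised by the authors. Per the submitters' processing notes, the genome build was hg19 and the tools included featureCounts and STAR, with no role stated. The sources used here do not state annotation release, strand setting or treatment of reads mapping to several places, so antisense, overlapping and near-identical genes are uncertain. The 16 named pseudogenes of members had at most 1 count each.

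Identifiers were matched without version to current symbols, and 40608 of 60880 rows received a symbol. All 44 members and 166 of 167 list entries matched. PECAM1 did not. The 9 protein-coding symbols with more than 1 row were left out of the totals over protein-coding genes. Gene type and gene order came from RefSeq (GRCh38.p14), used for names and neighbourhood. Promoters came from the same assembly and were joined by symbol. Where several starts are listed, the most upstream was used.

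Counts were divided by the library total to give CPM, with exact (Garwood) Poisson and exact (Clopper-Pearson) binomial 95% intervals. For a gene at 0 the limit is the level of 3 counts. The family rule for members uses no measured value, but the families and the 15 gene lists were chosen with earlier results of these data known. All 44 members and all SP factors are named, and from every other list the 3 highest counts and genes under 10 counts, except that a few list genes are not reported here. Other list genes, the printed promoters and the pair comparison of KLF14 and KLF16 were chosen after their values were seen. Levels and paralog ratios per transcript length and a comparison of proteins were planned but not computed, because neither lengths nor proteins were used. On simulated data, intervals held the mean for 95.6% of 13276 genes, and all 500 planted motifs were found. The software was SciPy 1.17.1, Biopython 1.88, pandas 2.3.3, Matplotlib 3.10.9 and NumPy 2.4.6 under Python 3.11.15.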

Additional observations from a re-analysis of the deposited data

How the results depend on the processing

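The number of detected members was 40 at a minimum of 1 count, 29 at 50 counts, 30 at 1 CPM and 33 after random thinning of the counts to 50%, against 34 as reported. Of 19033 protein-coding genes 13265 had at least 10 counts and 4030 were at 0. The share of all protein-coding genes was not computed at 50 counts, at 1 CPM or after thinning. ELF3 held 20.2% of ETS reads and KLF6 27.0% of KLF reads after thinning. CPM values were 1.06 times as high with a total that omitted mitochondrial genes, and 1.08 times with one that omitted the top 10 genes. Those changes exceeded the counting interval for 10 and 18 of the 34 detected members, and thinning did so for 3. Detected members of 3 lists moved by over 1.5 times: reported ELF3 or EHF targets were 3 at 50 counts (7 at 1 count, against 5 as reported), endothelial markers were 1 at 50 counts and 1 after thinning, and leukocyte markers were 6 at 1 count and 0 at 50 counts. At a minimum of 1 count the share of detected genes among promoters with the ETS-type, the longer and the shorter KLF-type motif was 95.3%, 76.2% and 82.1%, because more genes pass. Counting any listed start was an alternative chosen after seeing the data, like the split by GC content and the other 3 motifs. It gave 68.4% for the longer and 74.3% for the shorter KLF-type motif, against 71.4% and 68.6% without each. In the lowest GC group the longer motif then gave 41.8% both with and without it. The shorter motif gave 51.5% with it and 37.4% without it in that group. With 1 library, no replicate could be left out. Paralog ratios per length, in raw counts or after thinning, and family shares per length were not run. No paired analysis was possible because values came from a single library.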
